A study of Mus musculus with 2 samples.

Results

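Glycolysis was followed through 10 of its enzymes, which were picked by symbol from the 32285 genes of the tables: Hk2, Gpi1, Pfkl, Aldoa, Tpi1, Gapdh, Pgk1, Eno1, Pkm and Ldha. All 10 were found, and all 10 passed the filter on low counts in microglia-like cells. CD45+ cells had been sorted from the brains of 12-week-old littermates on a C57BL/6J background, 4 control mice and 4 Arpc4ΔCx3cr1 mice, tagged per mouse and pooled into 1 library. Both groups carried Arpc4 fl/fl alleles. The controls lacked Cre, and the Arpc4ΔCx3cr1 mice carried a heterozygous Tg(Cx3cr1-Cre) transgene, which removes Arpc4, a subunit of the actin-branching Arp2/3 complex, from microglia and other cells that express Cx3cr1. The question asked of the enzymes was whether their transcripts differed between the genotypes in microglia, and whether any difference was also seen in other immune cells of the same brains.

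Glycolysis breaks glucose down to pyruvate in the cytosol and yields ATP without oxygen, and lactate dehydrogenase turns pyruvate into lactate. Its upper part spends ATP to trap and split the sugar (Hk2, Gpi1, Pfkl, Aldoa, Tpi1), and its lower part regains ATP and NADH (Gapdh, Pgk1, Eno1, Pkm). Microglia express these enzymes at rest, and macrophages are known to use the pathway more when they are activated. Many of the genes are known targets of the hypoxia-inducible factor HIF-1.

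The 8 mice gave 5251527 to 12878691 unique molecular identifiers (UMIs) on genes, and a UMI stands for 1 captured transcript 3′ end, so that levels are not scaled by transcript length. Microglia-like cells numbered 998 to 2318 per mouse and gave sums of 4211596 to 10829561 UMIs. Arpc4 itself was at 225 to 242 CPM (UMIs scaled to a common total) in control and at 131 to 147 in Arpc4ΔCx3cr1 microglia-like cells. Whether the counted 3′ ends lie in the deleted part of Arpc4 was not tested. The summed microglia markers were at 18189 to 18484 CPM in controls and at 7146 to 10709 in Arpc4ΔCx3cr1 mice, with all 8 markers detected in each mouse. Arpc4ΔCx3cr1 mouse 1 stood apart, with Xist at 1405 CPM against 3.55 to 14.6 in the other 7 mice and hemoglobin genes at 569 CPM against 3.62 to 5.58. The study had sequenced 1 female Arpc4ΔCx3cr1 mouse by accident, with the other 7 mice male. It left the female out of its later analysis because of possible sex bias, and does not say which mouse it was. Mouse 1 was kept here, and some values without this mouse are given below.

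The promoters are shown because 9 of the enzymes moved together in microglia (below) and because HIF-1 is known to bind a short core, ACGTG or GCGTG. The 250 bases before each RefSeq start site (build GRCm38.p6) were searched for it on both strands. Of the 10 enzymes, 8 had at least 1 match in a window, and 2, Gpi1 and Tpi1, had none. Among all 27025 genes with a window, 41.5% had a match. A match overlaps the E-box CACGTG, which contains the core on both strands, and 6.02% of all windows held that E-box. The windows of 4 enzymes follow, 5′ to 3′ on the coding strand, with each core or its reverse complement in capitals. Ldha and Pgk1 are shown for a rise in microglia, Gapdh as the enzyme with the most UMIs, and Hk2 as the enzyme that did not rise. All 4 windows shown hold a match. Gpi1 and Tpi1, with no match, rose by 1.07 and 1.32 on the log2 scale and are not shown. A second Ldha window, with 1 match, is not shown either. Gapdh and Hk2 lie on the minus strand.

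Ldha, chr7:46845554-46845803: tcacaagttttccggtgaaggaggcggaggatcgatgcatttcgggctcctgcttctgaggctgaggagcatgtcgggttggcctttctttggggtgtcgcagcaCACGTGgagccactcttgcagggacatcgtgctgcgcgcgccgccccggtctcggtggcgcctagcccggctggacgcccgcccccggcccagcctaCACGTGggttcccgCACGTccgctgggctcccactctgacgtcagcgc
Pgk1, chrX:106186850-106187099: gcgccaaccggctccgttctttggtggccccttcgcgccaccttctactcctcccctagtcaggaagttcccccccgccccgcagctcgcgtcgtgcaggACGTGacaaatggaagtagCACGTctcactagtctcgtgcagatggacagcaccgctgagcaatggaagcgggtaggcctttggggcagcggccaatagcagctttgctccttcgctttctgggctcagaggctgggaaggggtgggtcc
Gapdh, chr6:125165774-125166023: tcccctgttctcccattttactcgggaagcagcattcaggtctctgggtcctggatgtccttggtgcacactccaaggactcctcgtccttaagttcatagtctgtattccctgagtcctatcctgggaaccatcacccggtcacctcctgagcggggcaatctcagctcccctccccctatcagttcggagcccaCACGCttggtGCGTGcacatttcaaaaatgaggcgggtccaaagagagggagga
Hk2, chr6:82774455-82774704: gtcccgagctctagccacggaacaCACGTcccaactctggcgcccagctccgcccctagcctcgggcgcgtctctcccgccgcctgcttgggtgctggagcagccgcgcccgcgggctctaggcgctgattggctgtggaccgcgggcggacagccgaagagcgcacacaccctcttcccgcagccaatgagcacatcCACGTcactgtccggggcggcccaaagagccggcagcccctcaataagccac

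The Ldha window held 5 matches, 4 of which came from 2 E-boxes. The Pgk1, Gapdh and Hk2 windows held 2 matches each. Whether the matches go with the rise was not tested. The letters alone do not show that a factor binds there.

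In microglia-like cells, 9 of the 10 enzymes were higher in Arpc4ΔCx3cr1 than in control mice, 0 were lower, and Hk2 did not pass the test (quasi-likelihood test of edgeR; p adjusted by the Benjamini-Hochberg method over 12634 genes, threshold 0.05). The background was wide: 45% of all tested genes passed, 22.4% as higher and 22.6% as lower. The median log2 fold change was 0.83 over the enzymes and -0.01 over all genes tested. The groups of mice did not overlap for any of the 10 enzymes, against 43.2% of all genes. In bulk sums of this kind, more transcript per cell and a larger part of the cells expressing it cannot be told apart.

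**Figure D1:**
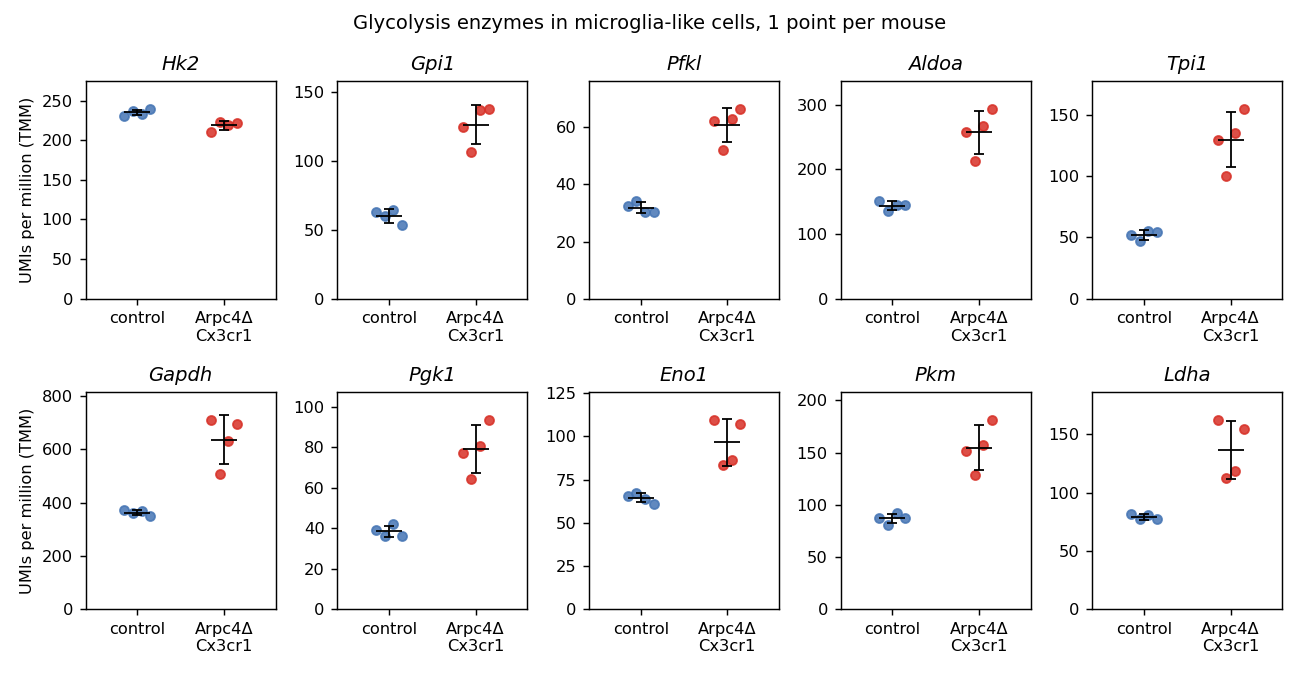
TMM-scaled CPM of each enzyme in microglia-like cells (y axis, from 0) by genotype, 1 point per mouse, with bars for the mean and SD of 4 mice. All 4 Arpc4ΔCx3cr1 mice lie above all 4 controls for 9 enzymes, and below them for Hk2.

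Hk2, the hexokinase that phosphorylates glucose at the entry of the pathway (chr6:82725025-82774454, minus strand, mm10), was at 231, 237, 234 and 239 TMM-scaled CPM in controls 1 to 4. It was at 211, 224, 219 and 222 in Arpc4ΔCx3cr1 mice 1 to 4. Each Arpc4ΔCx3cr1 mouse was below each control, by a small amount. The log2 fold change was -0.10 ± 0.05 (SE, 4 mice against 4) and the adjusted p in edgeR was 0.0922. Scaled by the total of UMIs alone, Hk2 passed as lower (log2 fold change -0.21, adjusted p 0.00484 in edgeR), and that scaling moved the median of all genes to -0.11.

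Gpi1 (chr7:34201330-34230336, minus strand), which turns glucose 6-phosphate into fructose 6-phosphate, was at 63.2, 60.1, 64.6 and 53.5 CPM in controls and at 125, 107, 137 and 138 in Arpc4ΔCx3cr1 mice. The level rose by 1.07 ± 0.09 on the log2 scale (SE, edgeR adjusted p 5.61e-06). Pfkl (chr10:77986947-78010083, minus strand), the liver-type phosphofructokinase that commits the sugar to glycolysis, was at 32.5, 34.2, 30.3 and 30.5 CPM in controls and at 62.0, 52.2, 62.9 and 66.2 in Arpc4ΔCx3cr1 mice. It rose by 0.93 ± 0.08 (edgeR adjusted p 8.35e-06). In both genes Arpc4ΔCx3cr1 mouse 2 was the lowest of its group and still above every control.

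Aldoa (chr7:126795234-126800751, minus strand), the aldolase that cuts the sugar into a pair of triose phosphates, was at 151, 135, 144 and 145 CPM in controls and at 258, 212, 266 and 293 in Arpc4ΔCx3cr1 mice. It rose by 0.84 ± 0.09 (edgeR adjusted p 2.76e-05). Tpi1 (chr6:124810586-124814296, minus strand), which interconverts these trioses, was at 51.6, 46.8, 54.9 and 54.7 CPM in controls and at 130, 100.1, 135 and 154 in Arpc4ΔCx3cr1 mice. Its rise of 1.32 ± 0.12 was the largest among the 10 enzymes, a 2.50-fold difference (edgeR adjusted p 8.24e-06).

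Gapdh (chr6:125161715-125166467, minus strand), which makes NADH from the trioses and is often used as a reference gene, was at 371, 359, 368 and 349 CPM in controls and at 709, 508, 631 and 693 in Arpc4ΔCx3cr1 mice. It rose by 0.81 ± 0.09 (edgeR adjusted p 5.28e-05), so that it was not level between the genotypes in these cells. Pgk1 (chrX:106187100-106203699, plus strand), the kinase of the first ATP-yielding step, was at 39.0, 36.4, 42.4 and 36.3 CPM in controls and at 77.3, 64.5, 80.8 and 93.4 in Arpc4ΔCx3cr1 mice, a rise of 1.04 ± 0.11 (edgeR adjusted p 2.19e-05). Gapdh and Pgk1 have processed pseudogenes of near-identical sequence. Whether reads that fit both a gene and its pseudogenes changed these levels was not tested.

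Eno1 (chr4:150236721-150248879, plus strand), the enolase of the step before pyruvate, was at 65.8, 67.0, 63.9 and 61.2 CPM in controls and at 109, 83.3, 86.6 and 107 in Arpc4ΔCx3cr1 mice. Its rise of 0.58 ± 0.09 was the smallest of the 9 (edgeR adjusted p 0.000438). Eno1 shares sequence with the near-identical Eno1b, and its level is uncertain for that reason. Pkm (chr9:59656368-59679375, plus strand), the pyruvate kinase, was at 87.9, 81.3, 92.2 and 87.6 CPM in controls and at 152, 129, 157 and 181 in Arpc4ΔCx3cr1 mice, a rise of 0.83 ± 0.09 (edgeR adjusted p 4.09e-05). The counts do not tell the M1 and M2 isoforms of Pkm apart, and Gm49759 overlaps Pkm on the same strand, so that reads within both are not counted.

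Ldha (chr7:46841475-46855627, plus strand), the subunit that favours making lactate from pyruvate, was at 81.3, 77.4, 81.2 and 77.2 CPM in controls and at 162, 112, 118 and 154 in Arpc4ΔCx3cr1 mice. It rose by 0.79 ± 0.11 (edgeR adjusted p 0.000217). Arpc4ΔCx3cr1 mouse 1 was the highest, and without it the rise was 0.70. The count of 9 higher enzymes was the same without that mouse, and the median log2 fold change of the 10 enzymes was then 0.84.

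Some other measures also differed between the genotypes in the same cells. Mitochondrial transcripts were at 5425 to 5968 CPM in controls and at 10594 to 12753 in Arpc4ΔCx3cr1 mice. The 11 immediate early genes, which respond to handling of the cells, summed to 631 to 716 CPM in controls. That range lay within the 435 to 801 CPM of Arpc4ΔCx3cr1 mice. The summed monocyte markers were at 294 to 428 CPM in controls against 613 to 867. B cell markers were at 241 to 255 against 74.3 to 145. The CAM markers, at 37.9 to 82.2 against 81.6 to 208, overlapped between the groups. The part of these measures in the enzymes' difference was not tested. With the mitochondrial genes left out of the sums, 9 enzymes again passed as higher, and with every mouse drawn to 967 cells of 2000 UMIs each, 9 did too.

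The genotypes also lay in different clusters of microglia-like cells, which were made without the listed genes. With each mouse weighted equally, Arpc4ΔCx3cr1 mice held 96.6% of the cluster led by Tafa1 and Ctnna3, 99.6% of that led by Xist and Fn1 and 98.5% of that led by Ttr and Cst7, and 1.67 to 4.23% of 4 clusters led by Csmd3, Ecscr or Crybb1. Of the 1686 cells of the Xist cluster, 1633 came from Arpc4ΔCx3cr1 mouse 1. That mouse gave 35 cells to the Tafa1 cluster, against 783 to 1217 from each other Arpc4ΔCx3cr1 mouse. In the Tafa1 cluster, which held 17 to 35 cells of each control mouse, Gapdh was at 386 ± 74.4 CPM in control and 442 ± 38.3 in Arpc4ΔCx3cr1 cells, and the mice overlapped. Gpi1 was at 71.9 and 115 CPM there and Ldha at 84.7 and 101.1. The mice did not overlap there for Gpi1 (highest control 86.0, lowest Arpc4ΔCx3cr1 99.1) and Pfkl (41.1 and 45.4), and overlapped for the other enzymes. In the cluster led by Ccl4 and Ccl3, with 13 to 30 cells of each control mouse, Gapdh was at 620 ± 128 and 921 ± 174 CPM (SD, n = 4 mice each). The highest control was at 769 and the lowest Arpc4ΔCx3cr1 mouse at 777. Gpi1 did not overlap in that cluster either (129 and 143), and the other enzymes overlapped, such as Ldha (313 and 214) and Aldoa (465 and 364). Over all microglia-like cells on the same scale, Gapdh was at 374 and 611 CPM. These levels within clusters are a description with no test. The share of all genes without overlap within a cluster was not computed, so the overlaps here have no background to be read against. The genotype difference above covers which clusters the cells lay in as well as the levels within them.

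Within enzyme families, the data give a share of UMIs that does not depend on the scaling of the library. The largest shift was in lactate dehydrogenase. Ldha made up 19.02, 19.35, 19.47 and 18.70% of the UMIs of Ldha and Ldhb in controls and 57.4, 37.8, 39.3 and 47.0% in Arpc4ΔCx3cr1 mice. Ldhb, whose subunit favours the reverse reaction, fell from 335 ± 9.79 to 166 ± 30.5 CPM (SD, 4 mice per group, edgeR adjusted p 4.98e-05) while Ldha rose.

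**Figure D2:**
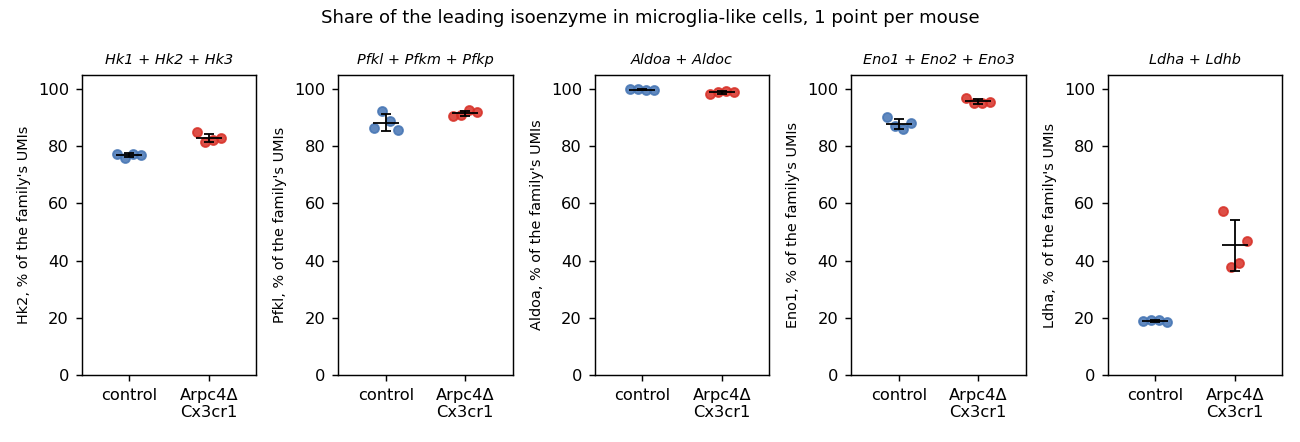
Share of the named enzyme among the UMIs of its family in microglia-like cells (y axis, percent, from 0) by genotype, 1 point per mouse, with bars for the mean and SD of 4 mice. The Ldha share lies between 18.7 and 19.5% in controls and between 37.8 and 57.4% in Arpc4ΔCx3cr1 mice.

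The mean Ldha share was 19.1 ± 0.35% in controls and 45.4 ± 8.98% in Arpc4ΔCx3cr1 mice (SD, 4 mice per group). An exact two-sided permutation test gave p = 0.0286, which no 4 against 4 comparison can undercut, or 0.0357 after adjustment over 5 families. The share of Hk2 among Hk1, Hk2 and Hk3 was 76.8 ± 0.68% against 82.9 ± 1.52%, at the same exact p. Its own level did not rise, and Hk1 fell by 1.00 and Hk3 by 0.53 on the log2 scale. The share of Eno1 among Eno1, Eno2 and Eno3 was 87.8 ± 1.83% against 95.6 ± 0.76%, and that of Aldoa in Aldoa and Aldoc 99.7 ± 0.17% against 98.9 ± 0.56%, both at the same exact p. The Pfkl share, 88.2 ± 2.99% against 91.5 ± 0.92%, overlapped between the groups (exact p = 0.114).

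The rest of the pathway was read from lists, whose counts are to be read against the 22.4% of all genes that were higher and the 22.6% that were lower, with a median near 0. Of 11 tested genes of the other isoenzymes and the step missing above, 3 were higher, 6 lower and 2 did not pass, with a median log2 fold change of -0.45. Pgam1, the phosphoglycerate mutase between Pgk1 and Eno1, rose from 65.2 ± 3.08 to 108 ± 15.1 CPM (edgeR adjusted p 9.79e-05). Pfkp and Aldoc, at under 5 CPM in each genotype, were the other 2 that rose, and Hk1, Hk3, Pfkm, Bpgm, Eno3 and Ldhb fell. With thinned cells, 1 of the list was higher and 3 were lower.

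Of 9 tested transporters of glucose and lactate, 4 were higher and 2 lower. Slc2a1, the glucose transporter GLUT1, rose from 20.9 ± 2.00 to 53.3 ± 7.08 CPM (log2 fold change 1.35, edgeR adjusted p 3.61e-06), and Slc16a3, the lactate exporter MCT4, from 19.97 ± 2.20 to 48.2 ± 9.32 CPM (1.27, adjusted p 3.35e-05). Slc2a5, the fructose transporter GLUT5 that is typical of microglia, fell from 253 ± 9.09 to 36.0 ± 14.1 CPM (-2.82, edgeR adjusted p 2.67e-06). The transporters thus did not move in 1 direction.

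Of 14 tested regulators, 6 were higher and 0 lower, and the share that passed was close to that over all genes (45%, in either direction). Hif1a, the oxygen-regulated subunit of HIF-1, rose by 0.92 ± 0.13 on the log2 scale (edgeR adjusted p 0.000224), and Egln3, a prolyl hydroxylase and known HIF target, rose from 1.79 ± 0.77 to 18.2 ± 6.52 CPM (edgeR adjusted p 1.78e-05). Pfkfb3, which makes the fructose 2,6-bisphosphate that activates phosphofructokinase, rose from 80.6 ± 2.85 to 121 ± 2.23 CPM (log2 fold change 0.59, edgeR adjusted p 3.78e-06). Of 9 tested hypoxia-induced genes outside glycolysis, 5 were higher and 0 lower, among them Mif, a cytokine, which rose by 1.36 (edgeR adjusted p 7.97e-06). P4ha1, a prolyl hydroxylase that acts on collagen, rose from 229 ± 10.8 to 362 ± 100.8 CPM (edgeR adjusted p 0.00551), and Fam162a from 35.2 ± 1.81 to 52.8 ± 6.94 CPM (edgeR adjusted p 0.000544).

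**Figure D3:**
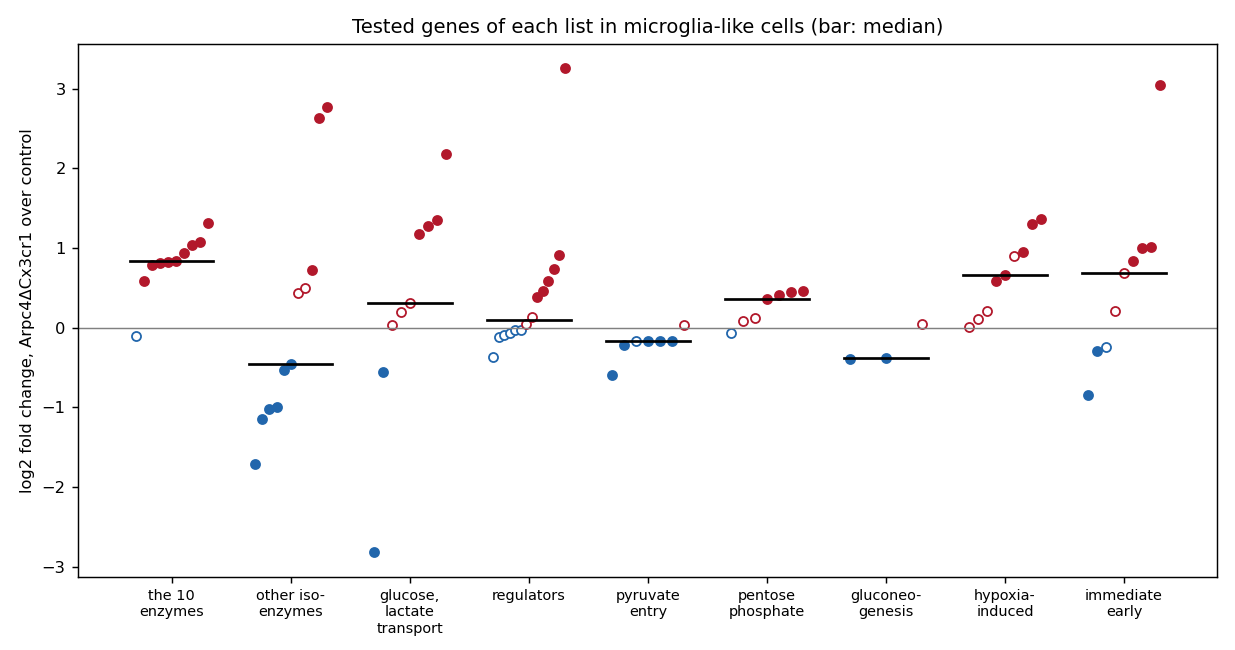
Log2 fold change (y axis) of each tested gene in microglia-like cells, by list, with filled points for genes that passed an adjusted p of 0.05, red above 0 and blue below, and a bar for the list's median. The median of the 10 enzymes is 0.83 and that of the other isoenzymes -0.45.

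Of 7 tested genes of the pentose phosphate pathway, which branches off at glucose 6-phosphate, 4 were higher and 0 lower, with a median of 0.36. Tkt, the transketolase, rose from 68.6 ± 3.32 to 94.3 ± 7.09 CPM (edgeR adjusted p 0.000225). Pgd, the dehydrogenase of 6-phosphogluconate, rose by 0.45 and Rpia, an isomerase, by 0.42 on the log2 scale (edgeR adjusted p 0.014 and 0.0191). The count of 4 was 2 without control mouse 3 or Arpc4ΔCx3cr1 mouse 3, 2 with thinned cells and 2 with the total of UMIs alone.

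Of 7 genes that bring pyruvate into mitochondria, 0 were higher and 5 lower, with a median of -0.16. Pdha1, a subunit of pyruvate dehydrogenase, fell from 18.6 ± 2.04 to 12.2 ± 1.68 CPM (edgeR adjusted p 0.00234). Dld, another subunit, fell by 0.22 on the log2 scale, and Mpc1, of the mitochondrial pyruvate carrier, and Pdhb by 0.16 each (edgeR adjusted p 0.0453, 0.0398 and 0.0494). The count of 5 was 1 without control mouse 1, Arpc4ΔCx3cr1 mouse 2 or Arpc4ΔCx3cr1 mouse 4, and 2 without any other control. It was 3 without Arpc4ΔCx3cr1 mouse 3, 6 without Arpc4ΔCx3cr1 mouse 1 and 0 with thinned cells. It was 2 with size factors of the RLE kind or with all cells, and 1 with DESeq2 or no filter on low counts. With the total of UMIs alone it stayed at 5.

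Of 3 tested genes of gluconeogenesis, 2 were lower, or 1 with thinned cells. Pck2, a mitochondrial enzyme that makes phosphoenolpyruvate, fell from 25.3 ± 1.72 to 19.2 ± 1.28 CPM (edgeR adjusted p 0.00276), and G6pc3, a glucose 6-phosphatase, from 34.97 ± 2.22 to 26.7 ± 2.94 CPM (edgeR adjusted p 0.00559).

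Of 9 tested immediate early genes, 4 were higher and 2 lower. Egr1, a transcription factor, rose from 3.39 ± 1.39 to 28.0 ± 12.2 CPM (edgeR adjusted p 7.62e-05) and Ier2 from 14.1 ± 2.49 to 29.1 ± 17.0 CPM (edgeR adjusted p 0.0331), while Jun, a subunit of AP-1, fell from 143 ± 8.46 to 80.02 ± 37.2 CPM (edgeR adjusted p 0.0169). The count of 4 was 2 without Arpc4ΔCx3cr1 mouse 4 and 2 with thinned cells.

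In the other cell classes with enough cells, 0 enzymes passed the test between genotypes. These were CNS-associated macrophage (CAM)-like cells, 21 to 111 cells per mouse, monocyte-like cells, 14 to 114, and T cell-like cells, 21 to 51. Of the genes tested with edgeR, 1.27% passed in CAM-like, 7.1% in monocyte-like and 3.88% in T cell-like cells. At an unadjusted p under 0.05, the counts of enzymes were 0 of 8, 2 of 9 and 1 of 10. The SEs of their log2 fold changes ran from 0.17 to 0.50, so that changes of the size of several in microglia were not detectable at this depth.

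**Figure D4:**
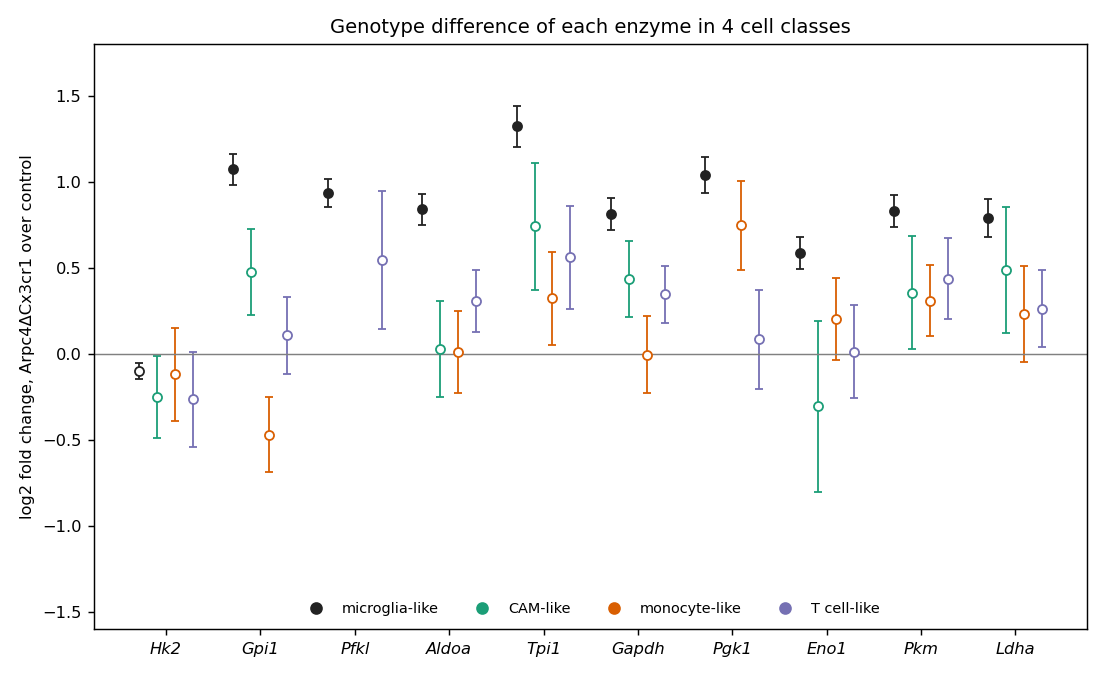
Log2 fold change between genotypes (y axis; points with bars of 1 SE) of each enzyme in microglia-like, CAM-like, monocyte-like and T cell-like cells, filled where the adjusted p passed 0.05. The 9 filled points are all of microglia-like cells, and enzymes too low to be tested in a class have no point.

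Whether the genotype difference itself differed between classes was tested in 1 model with the mouse as a term. The largest of the differences that passed was that of Gpi1 in monocyte-like cells, where it was at 282, 237, 207 and 280 CPM in controls and at 251, 169, 211 and 135 in Arpc4ΔCx3cr1 mice. The difference of log2 fold changes was -1.56 ± 0.27 (edgeR adjusted p 9.37e-06), and in T cell-like cells it was -0.93 ± 0.24 (edgeR adjusted p 0.00652). In all, 4 enzymes differed between monocyte-like and microglia-like cells (Gpi1, Aldoa, Tpi1 and Gapdh), against 6.9% of all genes, 1 in CAM-like cells (Aldoa), against 5.48%, and 1 in T cell-like cells (Gpi1), against 3.52%. The Gpi1 differences passed without any single mouse. The others rest on few cells: without control mouse 3 the count in monocyte-like cells was 1, and without control mouse 3, Arpc4ΔCx3cr1 mouse 3 or Arpc4ΔCx3cr1 mouse 4 it was 0 in CAM-like cells, while without Arpc4ΔCx3cr1 mouse 1 the counts were 3 in CAM-like, 4 in monocyte-like and 3 in T cell-like cells. Scaled by the total of UMIs alone, 0 enzymes differed in CAM-like, 1 (Gpi1) in monocyte-like and 1 (Gpi1) in T cell-like cells.

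The levels of the enzymes differed between classes, which is a description with no test. The 9 enzymes other than Hk2 summed to 951 ± 19.2 CPM in control and 1612 ± 197 in Arpc4ΔCx3cr1 microglia-like cells (SD, n = 4 mice each). Control CAM-like cells, at 940 ± 74.3, overlapped with control microglia. Control T cell-like cells were at 1422 ± 134 and control monocyte-like cells at 2027 ± 237, above all 4 control microglia sums. Granulocyte-like cells of the 1 control mouse with at least 10 of them were at 3211. Hk2 was at 243 CPM in control microglia-like, 137 in CAM-like, 89.6 in T cell-like and 82.2 in monocyte-like cells, of which the last pair overlapped.

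**Figure D5:**
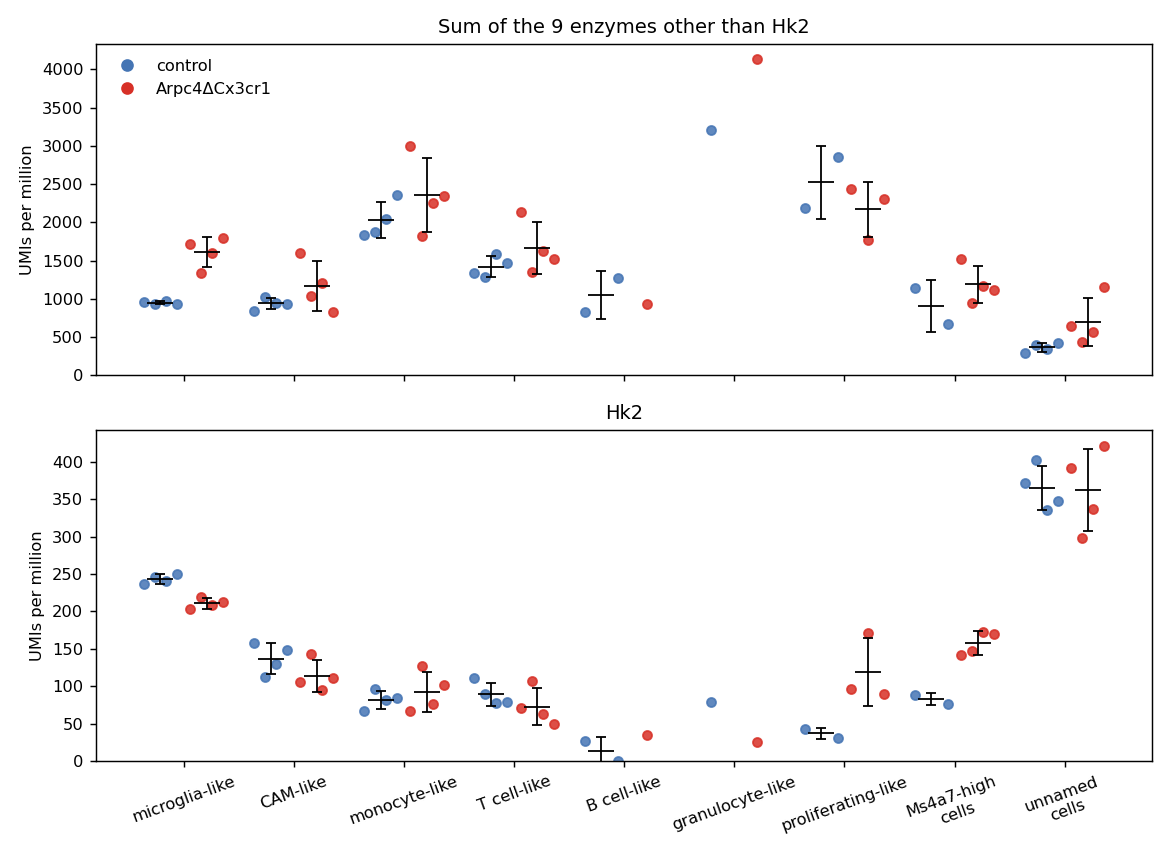
CPM (y axes, from 0) of the 9 enzymes other than Hk2 summed (top) and of Hk2 (bottom) in each cell class, by genotype, 1 point per mouse with at least 10 cells of the class, with bars for mean and SD. Hk2 is higher in microglia-like than in monocyte-like cells, and the sum of the other 9 is lower.

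Cells of an Ms4a7-high cluster, which were kept apart because only 1 of 8 microglia markers stood out in them, were nearly all from Arpc4ΔCx3cr1 mice. Their sum of the 9 enzymes was 1191 ± 242 CPM (SD, n = 4 Arpc4ΔCx3cr1 mice), against 1612 in microglia-like cells of the same mice, with ranges of 953 to 1526 and 1343 to 1794 that overlapped. Among clusters of Arpc4ΔCx3cr1 microglia-like cells, Gapdh was at 442 ± 38.3 CPM in the cluster led by Tafa1 and Ctnna3, at 921 ± 174 in that led by Ccl4 and Ccl3 and at 1337 ± 235 in that led by Ms4a7 and Lgals3 (n = 4 mice each). Hk2 was at 225, 199 and 165 CPM in the same clusters. Gapdh was lower, at 237 CPM, in the cluster led by Csmd3 and Bank1, to which 2 of these mice gave at least 10 cells.

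Free RNA was measured in 1769098 barcodes with at most 100 UMIs. Gapdh was at 643 CPM there, Aldoa at 292, Ldhb at 394, Hk2 at 174 and Ldha at 160. All of the 10 but Hk2 had a higher level in the empty droplets than in the mean control microglia. With 10% of each sum taken as free RNA and subtracted, 9 enzymes again passed as higher, with log2 fold changes of 0.65 for Eno1 to 1.54 for Tpi1.

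By likeness over 32 sums (microglia-like, CAM-like, monocyte-like and T cell-like cells of 8 mice), the mean profile of the 10 enzymes was nearest to Sorl1 (Pearson r 0.86), Bhlhe40 (0.85), Bcl2a1d (0.83), Cd244a (0.82) and Arhgap26 (0.80) among 8820 genes. The sums share a library and the same mice. Among the enzymes, Ldha and Pkm followed the mean profile most (0.87 each), and Hk2 went against it (-0.34). Each enzyme is itself part of that mean, so these values are not comparable with those of the other genes.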

How the data were processed

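CD45+ brain cells of 8 mice were measured by 3′ single-cell RNA sequencing in 1 library with a tag per mouse. The authors aligned reads to mm10 and deposited raw UMI counts per gene and cell, with 1 table for each mouse and an unfiltered one for the pool. The file headers name Cell Ranger 7.1.0 and the submitters' processing notes Cell Ranger 6.1.2. The counts were not normalized and not corrected for free RNA. The groups come from the tag labels, and the age from the study's text.

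Barcodes under 200 genes or over 20% mitochondrial UMIs were left out, which kept 19863 of 19864. They were clustered with Seurat 5.3.0 (R 4.3.3; 10000 variable genes, of which 9948 were used after the listed genes were taken out, 20 components, resolution 0.8) and named "-like" from marker lists. The limits for naming, the Ms4a7-high class and the setting aside of a hemoglobin list were set with the clusters in view. Cells with tags of several mice were removed by the authors' assignment, no barcode was shared between mice, and no doublet caller was run, so that doublets within a mouse remain.

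UMIs were summed per mouse and class (at least 10 cells) and tested by the quasi-likelihood method of edgeR 4.0.16, with filterByExpr, TMM factors and Benjamini-Hochberg adjustment over every gene that passed the filter. DESeq2 1.42.0 was an alternative. CPM beside a test are TMM-scaled, and CPM of other classes, clusters and empty droplets are scaled by the total. On simulated counts of 12634 genes for the microglia comparison, 95% of 2-fold and 64% of 1.5-fold changes were recovered. The simulation raised 100 genes by each fold and lowered none. In the data 45% of genes passed, in both directions, so that these rates need not hold there. Shares were compared with exact permutation tests (Python 3.11.15, scipy 1.17.1). Positions are from GENCODE vM21 and promoters from RefSeq. The Aldoa row with more UMIs was used of 2 with that symbol. The replicate numbers did not pair the mice (correlations of -0.06 to -0.01).

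The enzymes and lists were chosen with earlier results of these data known. All 10 enzymes are named, and a listed gene where it passed and was among the 3 largest changes of its list at 10 CPM or more, or belongs to an enzyme family above. Bulk RNA sequencing and imaging were not analysed here.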

Additional observations from a re-analysis of the deposited data

Results flagged for a closer look

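Of 90 groups of 4 mice, 6 had 1 mouse far from the other 3, and chance gives about 1 in 20. In CAM-like cells, Eno1 was at 19.3 CPM in control mouse 2, with the next mouse at 68.9. In monocyte-like cells, Ldha was at 177 CPM in control mouse 1, with the next at 251. In T cell-like cells of Arpc4ΔCx3cr1 mice, Gapdh was at 773 CPM and Tpi1 at 118 in mouse 1, with the next mice at 517 and 75.4, and Pfkl was at 20.1 in mouse 2, with the next at 43.1. In microglia-like cells, the Eno1 share was 96.7% in Arpc4ΔCx3cr1 mouse 1, with the next at 95.3%.

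The genotype difference was smaller than in microglia-like cells, by a test of the difference itself (edgeR, adjusted p under 0.05), for Aldoa in CAM-like cells (difference of log2 fold changes -0.89) and for 4 enzymes in monocyte-like cells, Gpi1 (-1.56), Aldoa (-0.88), Tpi1 (-1.01) and Gapdh (-0.85), and for Gpi1 in T cell-like cells (-0.93). Cell numbers in these classes ran from 14 to 114 per mouse.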

How the results depend on the processing

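The count of 9 enzymes higher in microglia-like cells was 9 under size factors of the RLE kind, DESeq2, no filter on low counts, all cells, a clustering resolution of 0.4, free RNA subtracted, thinned cells, and without each mouse in turn, and 10 (Hk2 added as lower) with the total of UMIs alone or, chosen after seeing the data, with the Ms4a7-high and unnamed cells added. With the replicate number as a block, 9 enzymes passed, and the block changed no call in the other classes. Among the lists, it moved the immediate early genes called higher from 4 to 2 and the pyruvate genes called lower from 5 to 2. The samples share only a number. In monocyte-like cells 1 enzyme passed with the total of UMIs alone, against 0. The number of enzymes whose difference differed from microglia was 0 with the total alone and 4 at a resolution of 0.4 in CAM-like cells, against 1, and 0 to 3 without single mice. In monocyte-like cells it was 1 with the total alone, against 4, and 1 to 4 without single mice, and in T cell-like cells 3 at a resolution of 0.4, against 1, and 1 to 3 without single mice. At 0.4 the Ms4a7-high cells fall in with CAM-like cells; otherwise the cause was not tested. Without single mice no exact test of a share can go below 0.0571. The differences of shares then ran from 5.37 to 6.54 percentage points for Hk2, 2.40 to 4.65 for Pfkl, -1.04 to -0.60 for Aldoa, 7.21 to 8.64 for Eno1 and 22.2 to 28.8 for Ldha. In CAM-like, monocyte-like and T cell-like cells, few cells per mouse limit what can be detected.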
